A study of Mus musculus with 8 samples.

Results

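The circadian clock genes studied here were Per1, Per2, Per3, Cry1, Cry2, Arntl, Clock, Nr1d1, Nr1d2 and Dbp, chosen by gene symbol as the core activators, repressors and output genes of the clock. All 10 were rows of the deposited table of 15035 genes, and all 10 passed the filter on low values that left 14870 genes for testing. Poly(A) RNA of the auditory nerve was sequenced in bulk at postnatal day 21 (P21), and each library holds the nerves of both cochleas of 1 mouse. Libraries 1 to 4 are wild type, and the other 4, numbered 5 to 8, carry the label Mef2c heterozygote (+/-). Mef2c encodes a MADS-box transcription factor. The labels give no strain, sex, litter, lighting schedule or time of day at dissection, and do not say how the Mef2c allele was made. The study asks how the nerve differs when Mef2c function is lowered, and the clock genes show in addition how alike the libraries are in their clock transcripts.

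In mammalian cells CLOCK and ARNTL (also called BMAL1) form a dimer that binds E-box sequences and activates the Per, Cry, Nr1d and Dbp genes. PER and CRY proteins return to the nucleus and block the dimer, and the REV-ERB receptors encoded by Nr1d1 and Nr1d2 repress Arntl, so that Arntl transcripts peak when those of Nr1d1, Dbp and the Per genes are low. Most peripheral tissues, the cochlea among them, carry such a clock.

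The library totals and the targeted gene were examined first. From the smallest step between values, depth was estimated at 13363356 to 21507197 reads per library, and the lowest value of any clock gene in any library was 122.7 normalized counts. Mef2c had 462.0 ± 50.4 normalized counts in wild type and 668.3 ± 66.8 in libraries 5 to 8 (SD, n = 4 each), which goes against the label, so each direction given here rests on the labels alone. Which part of the gene the allele lacks is not given, and a total over the whole gene need not show its loss. Neuronal and Schwann cell markers of the nerve were present in all libraries. Wild-type library 1 stood apart, and was the lowest of the 8 libraries in 27.5% of all genes tested and the highest in 26.0%. It and library 5 had 12 and 7.6 normalized counts of Xist, against at least 5175 in the other libraries. The p-values treat each mouse as independent, which could not be checked because litters are not given.

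RefSeq promoter sequences (build GRCm38.p6, 250 bases before to 50 after a transcript start) were at hand for 9 of the 10 genes, Per2 being the exception. They were searched on both strands for the E-box CACGTG, the related E-prime box CACGTT, the D-box TTANGTAA bound by DBP and its relatives, and the REV-ERB/ROR element, GGTCA with a T 2 bases and an A 5 bases before its first G. Of 32851 promoters of this length, 7.15% held the E-box, 4.68% the E-prime box, 2.32% the D-box and 2.46% the REV-ERB/ROR element. The 9 genes had 13 such promoters, and matches are given by gene, whereas these shares are by promoter. Per1, at 1 of its 2 starts, and Cry1 held an E-box, and Cry1, Cry2 and Nr1d1 held an E-prime box. D-boxes were found in Per3 alone of the 9, and the REV-ERB/ROR element in Arntl alone, at 1 of its 2 starts. The 4 promoters below are shown because they carry these matches in genes from both limbs of the loop. Per1 (chr11:69098699-69098998, plus strand), Per3 (chr4:151044616-151044915, minus strand), Nr1d1 (chr11:98775328-98775627, minus strand) and Arntl (chr7:113207261-113207560, plus strand) are printed from 5′ to 3′ on the strand of the gene, with the matches in capitals.
Per1: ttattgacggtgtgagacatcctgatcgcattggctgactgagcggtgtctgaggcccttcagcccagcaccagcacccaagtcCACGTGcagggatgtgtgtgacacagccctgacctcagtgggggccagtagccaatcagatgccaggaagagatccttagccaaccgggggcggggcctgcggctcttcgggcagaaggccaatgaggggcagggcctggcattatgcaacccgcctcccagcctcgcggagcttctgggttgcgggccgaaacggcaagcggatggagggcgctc
Per3: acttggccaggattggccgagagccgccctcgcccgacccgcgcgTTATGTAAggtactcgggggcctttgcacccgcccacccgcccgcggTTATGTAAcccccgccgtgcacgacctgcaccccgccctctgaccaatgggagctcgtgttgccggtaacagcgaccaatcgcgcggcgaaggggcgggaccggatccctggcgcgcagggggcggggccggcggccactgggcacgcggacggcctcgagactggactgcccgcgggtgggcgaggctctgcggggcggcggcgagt
Nr1d1: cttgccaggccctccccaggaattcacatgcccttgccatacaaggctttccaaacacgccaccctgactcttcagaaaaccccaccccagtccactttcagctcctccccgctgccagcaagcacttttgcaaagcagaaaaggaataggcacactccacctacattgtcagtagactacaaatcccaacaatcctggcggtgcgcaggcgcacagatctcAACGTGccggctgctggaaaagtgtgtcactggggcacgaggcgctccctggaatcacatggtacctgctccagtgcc
Arntl: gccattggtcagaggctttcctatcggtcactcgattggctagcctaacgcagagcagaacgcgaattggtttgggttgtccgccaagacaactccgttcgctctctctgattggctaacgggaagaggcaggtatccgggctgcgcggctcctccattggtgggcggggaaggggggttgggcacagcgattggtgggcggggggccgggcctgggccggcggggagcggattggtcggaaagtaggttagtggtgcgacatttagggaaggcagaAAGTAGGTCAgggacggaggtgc
The capitals mark CACGTG in Per1, TTATGTAA at both places in Per3, AACGTG (the E-prime box read on the other strand) in Nr1d1 and AAGTAGGTCA in Arntl. In the Arntl promoter the match lies after the transcript start, with its first base 27 bases past it. These letters describe the sequence and are no evidence of binding in this nerve. The windows of Dbp, Nr1d2 and Clock held no match, which says only that these letters are not in those windows.

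The activators were taken first. Arntl (chr7:113207465-113314126 in mm10, plus strand, by GENCODE M21) had 316.7, 231.8, 257.6 and 241.6 normalized counts in wild-type libraries 1 to 4. In libraries 5 to 8, labelled heterozygote, it had 122.7, 243.1, 273.3 and 194.1. Library 5 was the lowest by a wide margin and library 8 the next, while libraries 6 and 7 lay within the wild-type range. The log2 fold change was -0.38 (SE 0.24; limma-trend, adjusted p = 0.479), so Arntl did not pass. Without library 5 it was -0.15, and without libraries 1 and 5 it was -0.05. Clock (chr5:76209868-76304792, minus strand), the partner of Arntl, had 907.1, 1044.1, 1262.2 and 997.7 normalized counts in wild type. It had 1294.8, 1410.6, 1250.6 and 1455.2 in libraries 5 to 8. Only wild-type library 3 reached into the range of the libraries labelled heterozygote, just above library 7. Clock had the smallest p of the 10 genes, with a log2 fold change of 0.37 (95% interval 0.12 to 0.62) and an unadjusted p of 0.00732 (limma-trend, adjusted p = 0.262). Its longest transcript, at 9744 bases, is the longest of the 10. After correction of each library for its trend with transcript length, its log2 fold change was 0.12 with an unadjusted limma-trend p of 0.176. It had the nearest approach to the threshold without wild-type library 3, where the limma-trend adjusted p was 0.0507.

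Among the repressors, the Per genes differed most between libraries. Per2 (chr1:91415982-91459324, minus strand) had 247.9, 236.6, 213.6 and 187.2 normalized counts in wild type. In libraries 5 to 8 it had 517.0, 263.1, 224.3 and 525.1. Libraries 5 and 8 thus formed a group of their own above 500 normalized counts, and libraries 6 and 7 were close to wild type. The SD was 26.9 among libraries 1 to 4 and 160.9 among libraries 5 to 8 (n = 4 each). Per2 had the largest log2 fold change of the 10 genes, 0.69 (95% interval 0.10 to 1.28), with an unadjusted p of 0.0253 (limma-trend, adjusted p = 0.307). Without library 5 or without library 8 its log2 fold change was 0.51 or 0.50, with unadjusted limma-trend p of 0.0907 and 0.0924. Per1 (chr11:69095217-69109960, plus strand), which also responds to acute signals such as glucocorticoids, had 743.6, 1242.8, 1310.8 and 1498.9 normalized counts in wild type. It had 1855.3, 1496.0, 1383.4 and 1760.8 in libraries 5 to 8. Wild-type library 1 was far below the rest, and libraries 5 and 8 were again the highest. The log2 fold change of Per1 was 0.47 (95% interval 0.06 to 0.89), with an unadjusted p of 0.0284 (limma-trend, adjusted p = 0.315). It was 0.26 without wild-type library 1, with an unadjusted limma-trend p of 0.0491, and 0.19 without libraries 1 and 5, with 0.136. Per3 (chr4:151003652-151044665, minus strand) had 698.2, 790.1, 722.3 and 953.0 normalized counts in wild type. It had 1206.8, 847.8, 603.1 and 1284.5 in libraries 5 to 8, where library 7 was the lowest and library 8 the highest of all 8 libraries. Its log2 fold change was 0.27 (SE 0.21; limma-trend, adjusted p = 0.570). It was 0.48 without library 7, with an unadjusted limma-trend p of 0.0159, but 0.15 without library 5 and 0.12 without library 8. After the length correction it was 0.12, and without libraries 1 and 5 it was 0.09.

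The cryptochromes, which with the PER proteins silence the activator, varied less. Cry1 (chr10:85131700-85185064, minus strand) had 267.3, 310.7, 208.1 and 213.8 normalized counts in wild type and 278.1, 199.5, 176.2 and 271.0 in libraries 5 to 8. In each genotype a pair of libraries was high and a pair low, and the ranges overlapped. The log2 fold change of Cry1 was -0.12 (95% interval -0.57 to 0.33), and ran from -0.22 without library 5 to 0.0015 without library 7. Cry2 (chr2:92403646-92434043, minus strand) lay between 1260.1 and 1670.4 normalized counts over all 8 libraries, with the highest value in library 5. Its log2 fold change was 0.10 (95% interval -0.13 to 0.34). It was 0.05 without library 5 or after the length correction, 0.06 without library 1, 0.17 without library 6 and 0.0043 without libraries 1 and 5.

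Nr1d1 and Nr1d2, the nuclear receptors that close the second loop on Arntl, were next. Nr1d1 (chr11:98767932-98775333, minus strand) had 1417.5, 1870.3, 1670.3 and 2006.5 normalized counts in wild type and 1966.2, 1651.4, 2007.9 and 2535.9 in libraries 5 to 8. Library 8 was the highest and wild-type library 1 the lowest. The log2 fold change of Nr1d1 was 0.22 (SE 0.14; limma-trend, adjusted p = 0.479). It was 0.11 without library 8, 0.13 without library 1 and 0.14 without libraries 1 and 5, and 0.32 without library 6, with an unadjusted limma-trend p of 0.0451. Of its exonic bases 8.55% are shared with Thra on the other strand. The library kit marks strand, but whether counting used it is not given in the sources used here. Thra itself was at 4305.6 normalized counts in library 1, its highest, and 3354.1 in library 8, its lowest, opposite to Nr1d1 in these libraries. Among the remaining libraries, 3 and 6 were the lowest for both genes, with 3670.0 and 3569.4 normalized counts of Thra. The part of shared reads in the Nr1d1 values was not tested. Nr1d2 (chr14:18204054-18239127, minus strand) had 3052.4, 3446.0, 3700.4 and 3700.9 normalized counts in wild type and 4187.4, 3364.1, 3187.1 and 4137.6 in libraries 5 to 8. As for the Per genes, libraries 5 and 8 were the highest, but the log2 fold change was only 0.09 (95% interval -0.15 to 0.34). It was 0.03 without library 1 or library 5, 0.04 without library 8, 0.16 without library 7, 0.0037 after the length correction and -0.03 without libraries 1 and 5, so no direction between genotypes can be given for Nr1d2.

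Dbp (chr7:45705088-45710203, plus strand) encodes a PAR bZIP factor that carries clock timing to output genes through D-boxes. It had 2754.9, 2504.0, 1967.8 and 2931.0 normalized counts in wild type. It had 4780.5, 2462.7, 2272.5 and 3286.2 in libraries 5 to 8, so library 5 was the highest, library 8 the next, and libraries 6 and 7 lay inside the wild-type range. The log2 fold change of Dbp was 0.29 (SE 0.21; limma-trend, adjusted p = 0.534), and it was 0.07 without library 5, 0.12 without libraries 1 and 5, 0.17 without library 3 and 0.43 without library 7. Of the 2993 exonic bases of Dbp, 539 are shared with Sphk2 on the other strand. Sphk2 had 1233.9 normalized counts in library 5 and 1135.2 to 1524.8 in the other libraries. The part of shared reads in the Dbp values was not tested.

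**Figure D1:**
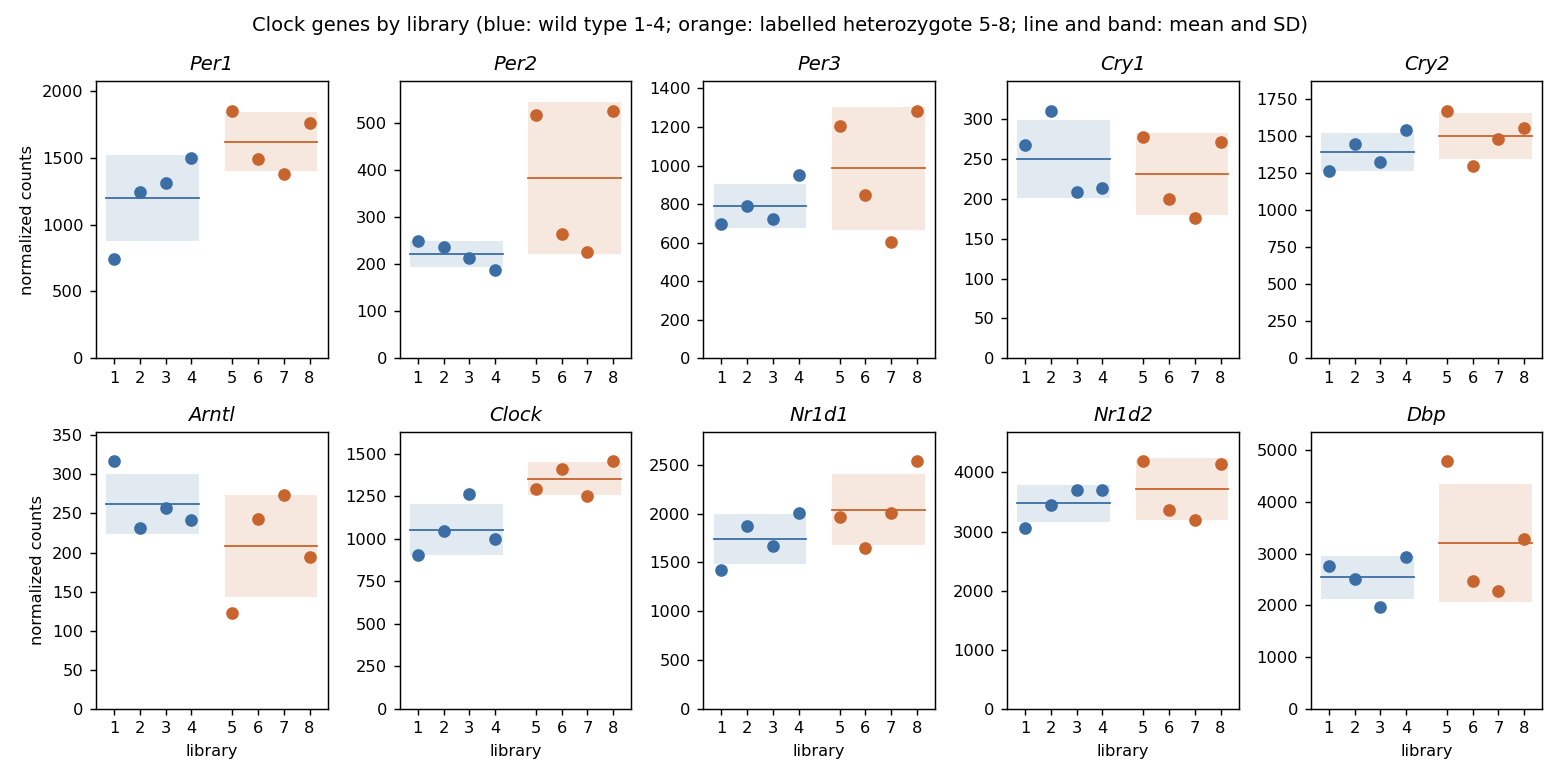
Normalized counts (vertical axes, from 0) of the 10 clock genes in each of the 8 libraries (horizontal axes), with the mean as a line and the SD as a band for each genotype (n = 4). Libraries 5 and 8 are the highest for Per1, Per2, Per3, Cry2, Nr1d2 and Dbp and the lowest for Arntl, and in no gene do the genotypes separate.

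Read together, 0 of the 10 clock genes passed a limma-trend adjusted p of 0.05, against 12 of 14870 genes, or 0.0807% of those tested. At an unadjusted limma-trend p under 0.05 there were 3 (Clock, Per1 and Per2), all higher in the libraries labelled heterozygote. Among all genes 6.72% reached this level in that direction, 7.34% in the other and 14.1% in either. 8 of the 10 genes had a log2 fold change above 0, as did 52.3% of all genes, and the median was 0.24 against 0.02 over all genes tested. The genotypes overlapped in all 10 genes, whereas in 7.26% of all genes they did not, 3.4% with the higher values in the libraries labelled heterozygote. In the authors' deposited table the FDR of the 10 genes ran from 0.118 for Per2 to 0.841 for Cry1, and 1.61% of all genes there had an FDR under 0.05. By the p-value of the authors' deposited table, 3 of the 10 genes (Per2, Clock and Per1) were under 0.05, as were 15.3% of all genes. The authors' deposited table gave a ratio of 1.73 for Per2, 1.28 for Clock and 1.35 for Per1. The count of 3 was 1 without library 5, without library 8, without libraries 1 and 5, or after the correction for transcript length. In the first 3 of these cases the gene left was Clock, and after the length correction it was Per1.

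**Figure D2:**
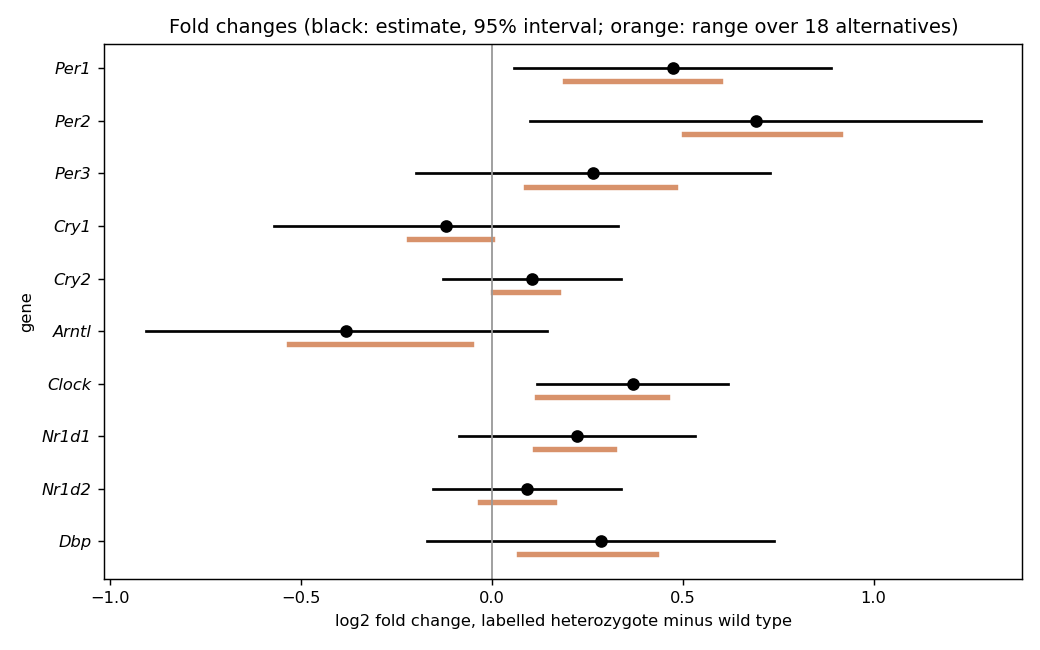
Log2 fold change of each clock gene (horizontal axis, labelled heterozygote minus wild type) with its 95% interval in black and the range of the estimate over 18 other settings in orange. The intervals of Per1, Per2 and Clock lie above 0, and the orange ranges of Cry1 and Nr1d2 cross 0.

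Values were then read library by library. Library 5 was among the 2 highest libraries for 7 of the 10 genes and library 8 for 8, which holds for 21.8% and 24.997% of all genes tested. Arntl, whose transcript runs opposite to the Per and Dbp limb in other tissues, was lowest in these same libraries. The ratio of Dbp to Arntl normalized counts was 39.0 in library 5 and 16.9 in library 8. In libraries 6 and 7 it was 10.1 and 8.32, and in wild-type libraries 1 to 4 it was 8.70, 10.8, 7.64 and 12.1. Per2 to Arntl gave 4.21 in library 5 and 2.71 in library 8, against 0.775 to 1.08 in the other 6 libraries. A contrast was formed as the mean log2 deviation of the Per, Nr1d and Dbp genes less that of Arntl and Clock. It was 0.86 in library 5 and 0.43 in library 8, and -0.24 and -0.36 in libraries 6 and 7. In wild-type libraries 1 to 4 it was -0.37, -0.04, -0.35 and 0.07. By genotype it was -0.17 ± 0.22 in wild type and 0.17 ± 0.58 in libraries 5 to 8 (SD, n = 4 each), a difference smaller than the SD of the latter. The difference of 0.34 was 0.11 without library 5, 0.52 without library 7 and 0.046 without libraries 1 and 5. Clock, set with Arntl in this contrast, was highest in library 8, where Arntl was next to lowest. Against Arntl alone the contrast was 1.37 in library 5 and 0.69 in library 8, and -0.81 to -0.10 in the others.

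Pairs of genes were then compared over the 8 libraries, with two-sided exact permutation tests and adjustment over all 45 pairs of the 10 genes. 16 pairs had an unadjusted Pearson p under 0.05, and 0 passed after adjustment by either coefficient. The share of pairs among all genes that reach this level was not computed, so the count of 16 is not read as particular to clock genes. Pairs with Per2 are given no coefficient, since its libraries fall into separate clusters. Arntl against Nr1d2 gave a Pearson r of -0.84 (exact permutation p 0.00181, adjusted 0.0815) and a Spearman rho of -0.88 (exact permutation p 0.00724, adjusted 0.115). Without the 2 libraries farthest from the median of Arntl, libraries 1 and 5, r was -0.80. Arntl against Per3 gave an r of -0.80 (exact permutation p 0.00890, adjusted 0.0855) and a rho of -0.88 (exact permutation p 0.00724, adjusted 0.115), and r was -0.93 without those libraries. Arntl against Dbp gave an r of -0.83 (exact permutation p 0.0202, adjusted 0.0892) and a rho of -0.69 (exact permutation p 0.0694, adjusted 0.240). It was -0.81 without libraries 1 and 5, and -0.80 over 8 libraries with the genotype means removed. Without library 5 alone r was -0.43, and without library 1 alone it was -0.94, so its size depends on which of these libraries is kept. Those 2 libraries are also the pair low in Xist, so the values over the other 6 serve as the comparison within the libraries high in Xist. Library 8, low in Arntl at 194.1 normalized counts and high in Nr1d2, Per3 and Dbp, is among these 6. No coefficient of Arntl was taken without both libraries 5 and 8, so how far each rests on them was not tested. 4 libraries a genotype are too few for a coefficient within each.

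**Figure D3:**
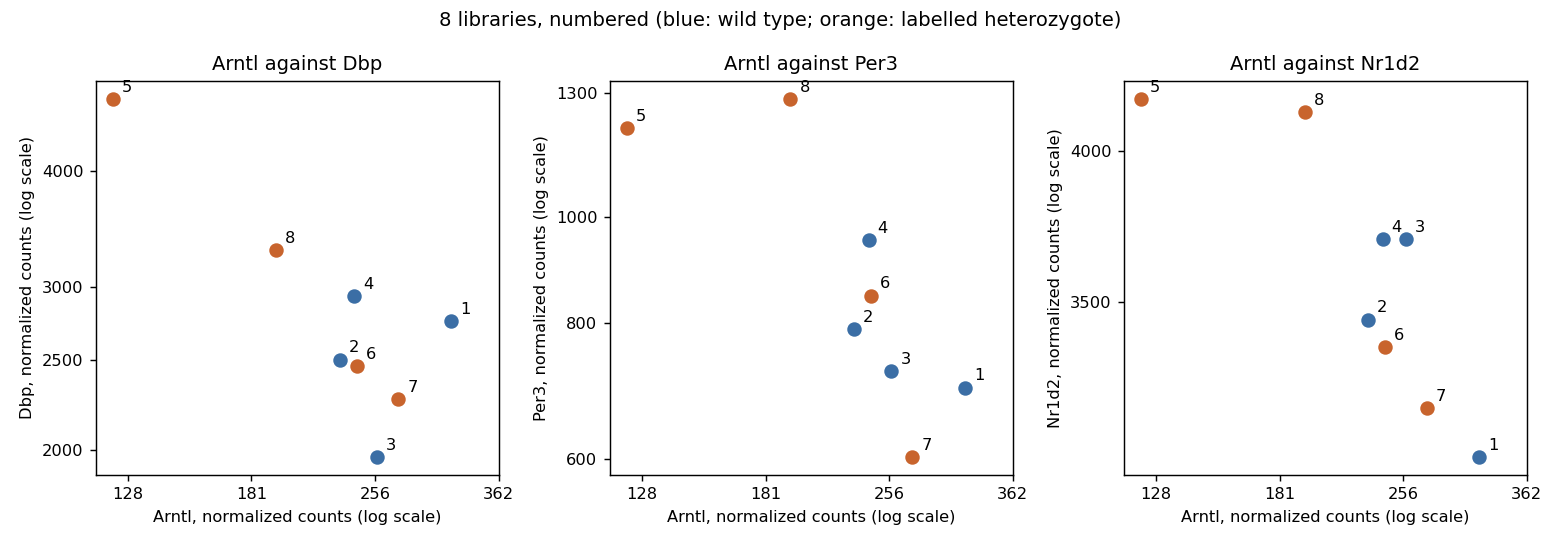
Normalized counts of Arntl (horizontal axes, log scale) against Dbp, Per3 and Nr1d2 (vertical axes, log scale) in the 8 numbered libraries, blue for wild type and orange for labelled heterozygote. Libraries 5 and 8 sit at the upper left of each panel, with low Arntl and high partner, and the other 6 lie together at the right.

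Other transcripts of the clock, from a list of 20, were set beside the 10 genes. Npas2, which can stand in for Clock as partner of Arntl and is itself a REV-ERB target, had 76.0 and 85.3 normalized counts in libraries 5 and 8. It had 105.4 and 224.3 in libraries 6 and 7 and 121.0 to 229.7 in wild type, and its log2 fold change was -0.65 (limma-trend, adjusted p = 0.395). Nfil3, a repressor at D-boxes, was likewise lowest in libraries 8 and 5, at 152.8 and 165.1 normalized counts, against 172.3 to 266.5 in the others. Ciart, an inhibitor of the CLOCK and ARNTL dimer, had 292.2 normalized counts in library 5 and 82.8 to 163.1 in the other 7. Tef, a relative of Dbp, was highest in libraries 5 and 8 at 5405.9 and 4948.4 normalized counts, against 3611.6 to 4530.6. Rorb encodes a ROR receptor, of the family that activates Arntl at the elements where REV-ERB receptors repress it. Rorb had its lowest and its highest value both in wild type, 98.6 normalized counts in library 1 and 284.7 in library 2.

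Of these 20 genes 0 passed the limma-trend adjusted p of 0.05, and 2 had an unadjusted p under 0.05, both higher in the libraries labelled heterozygote, beside 14.1% of all genes in either direction and 6.72% in this one. Hlf, another PAR bZIP factor, had 1723.4, 1726.2, 1833.3 and 1478.4 normalized counts in wild type and 2243.0, 2529.4, 1907.4 and 2675.0 in libraries 5 to 8. It was the 1 gene of the 20 whose genotypes did not overlap, as in 7.26% of all genes, with a log2 fold change of 0.46 (SE 0.12; limma-trend, adjusted p = 0.214). Unlike Tef and Dbp, it was high in library 6 as well. Bhlhe40, a repressor at E-boxes also known as DEC1, had a log2 fold change of 0.30 (limma-trend, adjusted p = 0.266). Over the list 15 of 20 genes lay above 0, and the median on the log2 scale was 0.13. Csnk1e, which encodes a kinase that sets the stability of PER proteins, gave -0.21 on the log2 scale (limma-trend, adjusted p = 0.355).

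**Figure D4:**
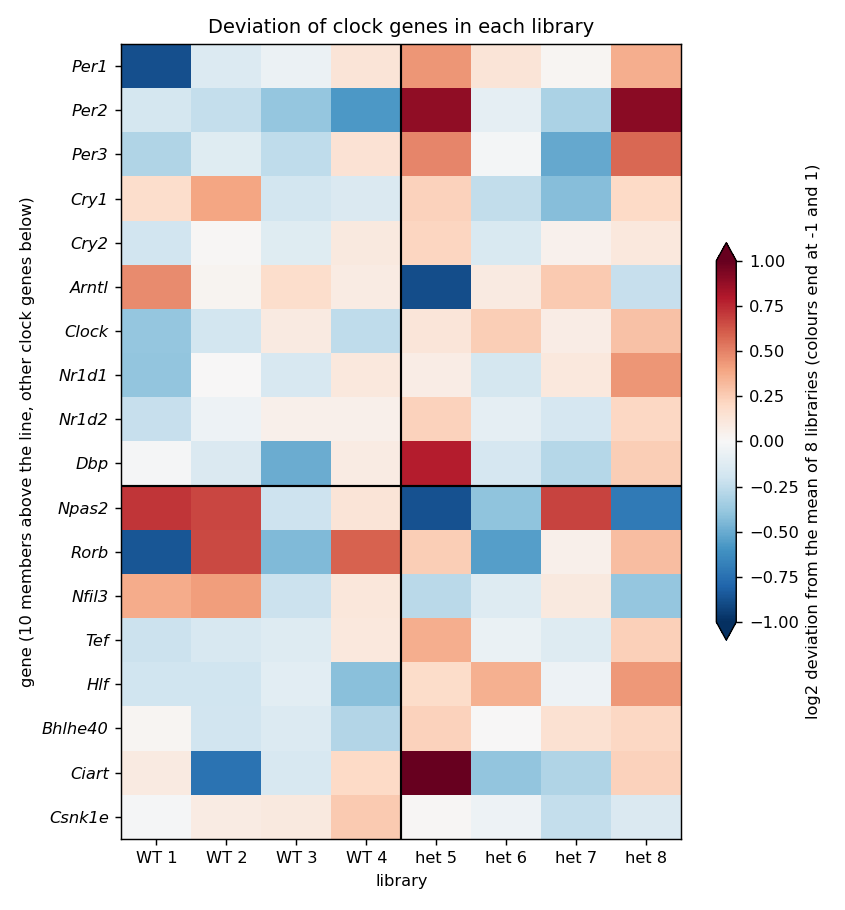
Log2 deviation of each clock gene from its mean over the 8 libraries (colour, with the scale ending at -1 and 1), for the 10 genes above the line and 8 other clock genes named in the text below it, with libraries as columns. Libraries 5 and 8 are red for the Per genes, Dbp and Tef and blue for Arntl, Npas2 and Nfil3. Library 1 was the lowest of the 8 in 14 of all 30 clock genes, drawn here or not, beside 27.5% of all genes tested.

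The spread between libraries of the same genotype was set against that of all genes as a description. The SD on the log2 scale, taken around the genotype means, was 0.47 for Per2, 0.39 for Dbp, 0.39 for Arntl, 0.38 for Per3 and 0.34 for Per1. Nr1d2, Clock and Cry2 had 0.17, 0.16 and 0.14. Over the 10 genes the median was 0.32, against 0.24 over all genes tested and 0.21 over the 20 other clock genes. Ranked by this SD among all genes tested, the 10 genes had a median percentile of 67.1. It was 54.9 without library 5, 54.0 without library 7 and 53.4 without libraries 1 and 5. With 1 library left out at a time it ran from 54.0 to 71.3. Low genes vary more, so each gene was also ranked among genes within a factor of 2 of its own level. There Dbp stood at percentile 96.9, Per3 at 95.2, Per1 at 93.9 and Per2 at 92.9. Arntl and Nr1d1 stood at percentiles 79.2 and 79.8, and Clock and Cry2, at 44.9 and 38.6, were below the middle of genes at their level. These ranks by level were taken over all libraries only, and how far they rest on single libraries was not tested. Clock transcripts cycle little in most tissues.

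**Figure D5:**
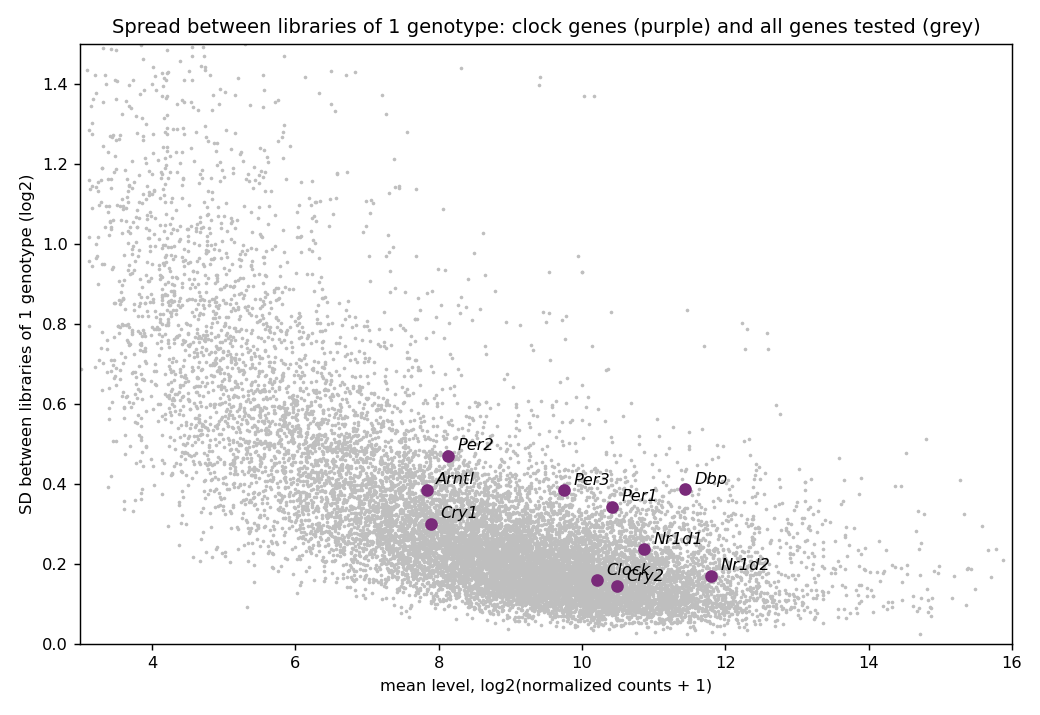
SD between libraries of 1 genotype on the log2 scale (vertical axis) against mean level (horizontal axis, log2 of normalized counts plus 1) for all genes tested in grey and the 10 clock genes in purple. Dbp, Per3, Per1 and Per2 lie near the upper edge of genes at their level, and Clock and Cry2 lie in the middle. 95 grey genes fall outside the axes.

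Levels can be compared between genes only per length. In normalized counts per kilobase of the longest transcript, Dbp was the highest at 1562 ± 474 (SD over 8 libraries), above Nr1d2 in 8 of 8 libraries. Nr1d2 and Nr1d1 followed at 771.4 ± 88.9 and 694.9 ± 122.6, and their ranges over libraries overlapped. Cry2 had 363.8 and Per1 302.2 normalized counts per kilobase, with Cry2 above Per1 in 8 of 8 libraries. Per3 and Clock, at 148.1 and 123.4, could not be ordered, since Per3 was above Clock in 5 of 8 libraries. Cry1, Arntl and Per2 were the lowest at 79.5, 58.9 and 51.7, and Arntl was above Per2 in 6 of 8.

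The genes most like Dbp and Arntl over the 8 libraries were looked up among 13346 genes with a mean of at least 50 normalized counts. Those most like Dbp were Tchp (r 0.945), Txlng (0.908), Mcm9 (0.897), Cdan1 (0.896) and Pcolce2 (0.889). Those most like Arntl were Bhmt (0.984), 1110046J04Rik (0.973), Adgrg1 (0.963), Zfp982 (0.962) and Gm21663 (0.958). None of these 10 is on the lists of clock genes. They are the extremes of a ranking over 8 libraries and carry no test.

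Markers of other cells in the dissected nerve also differed between libraries. All 13 oligodendrocyte markers were detected in every library. Their summed level was 202847 to 271766 normalized counts in wild type, against 103720 to 139595 in libraries 5 to 8. 4 of the 13 genes were lower at a limma-trend adjusted p under 0.05, a level that 0.0807% of all genes reached in either direction. The 8 astrocyte markers summed to 23074 to 33676 normalized counts in wild type, against 12712 to 21099 in libraries 5 to 8. 0 of 8 passed that threshold, and 4 were lower at an unadjusted limma-trend p under 0.05, beside 7.34% of all genes. The astrocyte and oligodendrocyte sums were both lowest in library 5, next lowest in library 8 and highest in library 1. These are the same libraries as for Arntl. The 9 Schwann cell markers summed to 111944 to 144739 and 103374 to 145387 normalized counts, and were highest in library 5. The 5 neutrophil markers in the table summed to 134.1 to 2550 normalized counts in wild type, against 717.9 to 6391 in libraries 5 to 8, with library 7 highest and library 8 next. The 8 osteoblast markers, which stand for the bone around the nerve, were all higher on average in libraries 5 to 8, with a median log2 fold change of 0.83. Of these 8 markers 0 passed the adjusted threshold, and 4 had an unadjusted limma-trend p under 0.05, beside 6.72% of all genes in this direction. Their sum was 5149 to 20782 normalized counts in wild type, highest in library 1, and 11591 to 27055 in libraries 5 to 8, highest in library 7. The 7 erythroid markers summed to 34445 normalized counts in library 1 and 29310 in library 7, and the remaining 6 libraries lay between 8543 and 22396. No marker of these 6 lists was at 0 in any library. In bulk tissue fewer cells of a type and less RNA per cell cannot be told apart, and the part of cell makeup in the clock gene values was not tested.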

How the data were processed

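The 8 libraries were grouped by their titles. Per the submitters' processing notes, STAR, Partek, DESeq2 and the build mm10 were used. Their roles, the annotation and the counting rule were not given in the sources used here. The authors deposited 1 table, whose signal per gene and library is, judged from its values, a read count divided by a size factor of the library. Per the file headers the same deposited table holds a p-value, an FDR and a ratio for each gene. Per the file headers it also holds that ratio as log2, and as a signed score not used here. The value of 1 read was estimated from the spacing of values under 1000 (tolerance 0.05). Between 88.6% and 91.7% came out whole, under the 95% needed to treat them as reads, so the main test was not a count test, and reads estimated this way entered 1 alternative only.

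Genes reaching 10 in 4 or more libraries entered limma-trend as log2(value + 1), with no covariate, and p-values were adjusted over all of them by Benjamini-Hochberg. Fold changes are on this scale, which understates those of low genes. The fit was tested on simulated data. Lengths and positions came from GENCODE M21 (mm10), with a length for 97.6% of genes, and the length correction removed a loess trend (span 0.5) from each library. The 10 genes and all lists were chosen with earlier results of these data known. Named genes were the 10 and Mef2c, other clock genes with an unadjusted p under 0.05 or among the 4 with the largest spread, the 5 most like Dbp and Arntl, and up to 3 of each other list by size of fold change; 1 gene that this rule names is not reported here. Nfil3, Tef, Csnk1e and the overlapping genes Thra and Sphk2 fall outside that rule and were picked with their values known, as was Xist. Alternatives were limma-voom on estimated reads, pseudocounts of 0.1 and 10, a filter at 50 or none, upper-quartile and quantile scaling, the length correction, low Xist as a covariate, and libraries left out. Fits ran in limma 3.58.1 under R 4.3.3. Figures were drawn with matplotlib 3.10.9, and other values came from pandas 2.3.3 and numpy 2.4.6 under Python 3.11.15.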

Additional observations from a re-analysis of the deposited data

How the results depend on the processing

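No paired analysis was possible because the labels give no litter or batch by which libraries could be paired. The replicate numbers (1 to 4 in wild type, 5 to 8 in the other) do not show pairs. Under all 18 alternatives 0 of the 10 clock genes passed a limma-trend adjusted p of 0.05. The count at an unadjusted p under 0.05, 3 genes, was 1 after the transcript-length correction and 1 without the 2 libraries low in Xist, and ran from 1 to 4 when each library was left out. The count over all genes, 12, was 7 with quantile normalization, 27 after the length correction, and ran from 0 to 221 over the libraries left out. It was 0 without library 2, 4 or 8, where 1912, 1446 and 1177 genes had an unadjusted limma-trend p under 0.05, and 221 without library 3. Limma-voom on all 8 libraries gave 11. Log2 fold changes kept their sign in all 18 alternatives for 8 of the 10 genes. Cry1 ran from -0.22 to 0.0015 over the libraries left out, the latter without library 7, and Nr1d2 turned to -0.030 without the 2 libraries low in Xist. The r of Arntl with Dbp ran from -0.94 to -0.43 over the libraries left out, and with genotype means removed from -0.93 to -0.41, the weakest value in each case without library 5. The cause of these changes was not tested. Depth is an estimate, and no clock gene was near 0. The length and Xist settings for the spread, the correlation and the contrast, and all those for the correlation with genotype means removed, were chosen after seeing the data.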

Other observations

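Genes that can move with handling or time of day were read from the same fit. Of 12 glucocorticoid-responsive genes, 1 passed an adjusted p of 0.05 by limma-trend, beside 0.0807% of all genes. This was Mt2, a metallothionein gene, which fell from 1865 ± 289 to 905.7 ± 85.6 normalized counts (SD, n = 4 each; limma-trend, adjusted p = 0.0199). Mt1 and the sulfotransferase gene Sult1a1 followed at -0.83 and -0.33 on the log2 scale (limma-trend, adjusted p = 0.160 and 0.266). The median of the 12 was -0.00087, with 6 genes above and 6 below 0.

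Of 12 immediate early genes 0 passed, and 1 had an unadjusted limma-trend p under 0.05, beside 14.1% of all genes. Nr4a1, an orphan nuclear receptor gene, had 188.2, 307.5, 257.6 and 273.0 normalized counts in wild type and 420.4, 326.7, 564.5 and 585.1 in libraries 5 to 8. Its genotypes did not overlap, as in 7.26% of all genes, at 0.87 on the log2 scale (limma-trend, adjusted p = 0.210). Of 8 temperature-responsive genes 0 passed, and 2 had an unadjusted p under 0.05 by limma-trend, beside the same 14.1% of all genes. These were Hspa1b and Dnajb1, a heat shock protein gene and a co-chaperone gene, at 0.54 and 0.35 (limma-trend, adjusted p = 0.263 and 0.266).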
